A study of Mus musculus with 9 samples.

Results

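Cytosolic ribosomal protein genes encode the protein components of the small and large subunits of the cytoplasmic ribosome. They were taken here as the protein-coding genes whose symbol starts with Rpl or Rps and a digit, together with Rplp0, Rplp1, Rplp2 and Rpsa, leaving out the S6 kinase genes (Rps6k) and symbols that end in -ps. The choice did not use any measured value. It gave 91 of the 29229 genes in the count table. Of these, 31 encode small-subunit proteins, 43 large-subunit proteins and 3 the stalk (Rplp0, Rplp1 and Rplp2), which makes 77 structural genes. Another 6 are paralogs of a main gene (Rpl3l, Rpl22l1, Rpl36al, Rpl39l, Rps27l and Rps27rt). A further 6 carry a numbered pseudogene-type symbol but are annotated as protein-coding (Rpl10-ps3, Rpl36-ps4, Rpl36a-ps1, Rpl9-ps1, Rpl9-ps6 and Rps12-ps3). Rps19bp1 and Rpl7l1 match the symbol rule and are not subunits.

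The cells were live CD3+ CD45.2+ splenic T cells of C57BL/6 mice, sequenced as total RNA after ribosomal RNA depletion. Allogeneic T cells came from CByJ.SJL(B6)-Ptprca/J recipients (H-2d) given 8 Gy and then, with counts in units of 1000000, 1 of donor T cells and 5 of T cell-depleted marrow cells. Syngeneic T cells came from B6.SJL-Ptprca Pepcb/BoyJ recipients (H-2b) given 9.5 Gy, 8.5 such units of donor T cells and the same marrow dose. Both were taken on day 7, and naive T cells came from healthy mice without a transplant. Irradiation dose and T cell number thus differed together with the recipient strain. Donors and recipients were females 8 to 12 weeks old. There were 3 libraries per group, and each transplant library pooled 2 to 4 recipients. The strain tag in the labels names the B6.SJL strain for all 9 libraries, against the protocols, and was not used.

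The mRNAs of nearly all ribosomal proteins belong to the TOP class: they start at a cytosine followed by a run of pyrimidines, and their translation is switched by the mTORC1 kinase through the binding protein Larp1. T cell activation raises their translation together with ribosome production. Apart from the stalk proteins each goes into a ribosome once, so that cells are generally held to make them in like amounts. Several of the proteins also act outside the ribosome, among them Rpl5 and Rpl11, which bind Mdm2 and so stabilise p53.

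Start regions and coding sequences are shown for genes on which the results turn. Each start region shown holds a pyrimidine run near the annotated start. By the same criterion, given below, 27 of the 57 structural genes with a promoter entry held one. The coding sequences are those of a paralog pair whose RNAs moved in opposite directions. RefSeq's promoter table (GRCm38.p6) had an entry for 65 of the 91 genes. The windows below run from 15 bases before to 15 bases after the annotated start, on the gene's strand, with the pyrimidine run in capitals. They lie at chr3:90213634-90213663 (minus strand, Rps27), chr9:66946071-66946100 (plus strand, the first of 2 Rps27l starts), chr2:32961697-32961726 (plus strand, Rpl12), chr4:86857353-86857382 (minus strand, Rps6), chr7:45128731-45128760 (minus strand, Rpl13a) and chr17:24720048-24720077 (plus strand, Rps2). Rps27 and Rpl12 were among the genes lowest in allogeneic relative to naive T cells, Rps27l rose, Rpl13a was lower than in naive T cells in the syngeneic group, and Rps2 did not pass the test in any comparison.
Rps27: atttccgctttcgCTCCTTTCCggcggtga
Rps27l: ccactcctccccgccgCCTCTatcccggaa
Rpl12: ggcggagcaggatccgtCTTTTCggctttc
Rps6: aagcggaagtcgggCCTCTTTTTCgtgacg
Rpl13a: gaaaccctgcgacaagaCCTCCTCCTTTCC
Rps2: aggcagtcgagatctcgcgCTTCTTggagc

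The coding sequences of Rps27 (GRCm38, chr3:90212522-90213651, minus strand) and Rps27l (chr9:66946086-66949516, plus strand) are shown without the stop codon, with the bases that differ in capitals. Both are 252 bases long and identical at 76.2% of positions, and their longest identical stretch is 11 bases, so that longer reads over the coding part differ between the genes. Rps27rt, an intronless copy at chr9:114982366-114982739 (minus strand), has a coding sequence identical to that of Rps27. Reads over the coding part cannot be assigned to 1 of those 2.
Rps27: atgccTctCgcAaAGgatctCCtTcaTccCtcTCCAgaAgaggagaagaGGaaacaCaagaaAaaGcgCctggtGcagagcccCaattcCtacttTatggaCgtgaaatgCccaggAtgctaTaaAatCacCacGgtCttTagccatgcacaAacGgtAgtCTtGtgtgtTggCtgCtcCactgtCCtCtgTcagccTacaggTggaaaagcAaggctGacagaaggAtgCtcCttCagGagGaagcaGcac
Rps27l: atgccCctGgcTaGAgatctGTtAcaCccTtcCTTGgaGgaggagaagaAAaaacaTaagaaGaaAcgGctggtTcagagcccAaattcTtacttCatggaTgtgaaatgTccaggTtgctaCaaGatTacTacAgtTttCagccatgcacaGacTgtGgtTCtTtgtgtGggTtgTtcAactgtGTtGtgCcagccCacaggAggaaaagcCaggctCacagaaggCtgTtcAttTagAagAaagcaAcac

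Libraries held 103953932 to 176678189 counts. A ribosomal RNA locus (Gm26917 and Gm42418) took 7.87 to 17.2% of the counts in allogeneic, 19.4 to 22.4% in syngeneic and 15.8 to 18.8% in naive libraries. The summed level of 10 T cell markers was 4274 to 4523 CPM (counts over the column total, scaled to 1000000) in allogeneic, 2999 to 3655 CPM in syngeneic and 4429 to 4785 CPM in naive libraries, and none of them was at 0 in any library. Summed erythroid markers (13 genes) reached 25.0 to 84.1 CPM in allogeneic, 2259 to 5829 CPM in syngeneic and 8.29 to 9.70 CPM in naive libraries. Summed neutrophil markers (10 genes) reached 630.5 to 1128 CPM in allogeneic, 416 to 1390 CPM in syngeneic and 1.66 to 5.20 CPM in naive libraries. Macrophage and monocyte markers (14 genes) summed to 339.95 to 400.4 CPM in allogeneic, 347 to 499 CPM in syngeneic and 99.6 to 105 CPM in naive libraries. B cell markers (11 genes) summed to 967 to 1505 CPM in allogeneic, 536 to 962 CPM in syngeneic and 469 to 495 CPM in naive libraries, and NK cell markers (10 genes) to 112 to 122 CPM in allogeneic, 183 to 213 CPM in syngeneic and 68.1 to 75.1 CPM in naive libraries. The B cell sums and the single B cell markers did not go together. In the tests below, 7 of the 11 B cell markers were called lower and 1 higher in allogeneic against syngeneic T cells. Against naive T cells 5 of them were called higher and 3 lower in the allogeneic group. In no list was a marker at 0 in all libraries. Within the groups, allogeneic library 1 had 17.2% of its counts in the ribosomal RNA locus, against 9.06 and 7.87% in allogeneic libraries 2 and 3. Syngeneic library 1 had 2259 CPM of erythroid markers, against 5829 and 4984 CPM in syngeneic libraries 2 and 3, and 416 CPM of neutrophil markers, against 1287 and 1390 CPM in those. Allogeneic library 1 and syngeneic library 1 also had the highest ribosomal protein share of their groups, given next. These lists move with the transplant, and their part in the results below was not tested. In bulk samples fewer cells of a type and less RNA per cell cannot be told apart.

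Ribosomal protein mRNA took a smaller share of all counts after transplantation. The 91 genes summed to 3.89, 3.26 and 3.43% of counts in allogeneic libraries, to 4.59, 3.59 and 3.87% in syngeneic libraries and to 5.18, 4.96 and 6.23% in naive libraries. Both transplant groups lay wholly below the naive group, while allogeneic and syngeneic values overlapped. With library sizes scaled by TMM (trimmed mean of M-values), the scaling of the tests below, the sums were 4.30, 3.21 and 3.30% in allogeneic, 4.89, 3.50 and 3.78% in syngeneic and 5.10, 4.72 and 6.25% in naive libraries. On that scale syngeneic library 1 lay above naive library 2, so that the syngeneic and naive groups overlapped, while the allogeneic group stayed below the naive one. Over column totals the means were 3.52 ± 0.32% in allogeneic, 4.02 ± 0.51% in syngeneic and 5.46 ± 0.68% in naive T cells (SD, n = 3 each). Within each group the structural genes moved as a block: all 77 were above their group's mean in allogeneic library 1, syngeneic library 1 and naive library 3, and all 77 were below it in allogeneic library 2, syngeneic library 2 and naive libraries 1 and 2.

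The balance of the subunits differed between the groups by more than the spread between libraries. The ratio of summed small-subunit to summed large-subunit counts, which no scaling of a library can change, was 0.886, 0.869 and 0.873 in allogeneic, 0.952, 0.940 and 0.940 in syngeneic and 1.02, 1.02 and 1.02 in naive libraries. The 3 groups did not overlap, and allogeneic library 1 and syngeneic library 1 were the highest of their groups here as in the summed share. Its means were 0.876 ± 0.009 in allogeneic, 0.944 ± 0.007 in syngeneic and 1.02 ± 0.002 in naive T cells (SD, n = 3 each). This ratio is given as a description with no test.

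**Figure D1:**
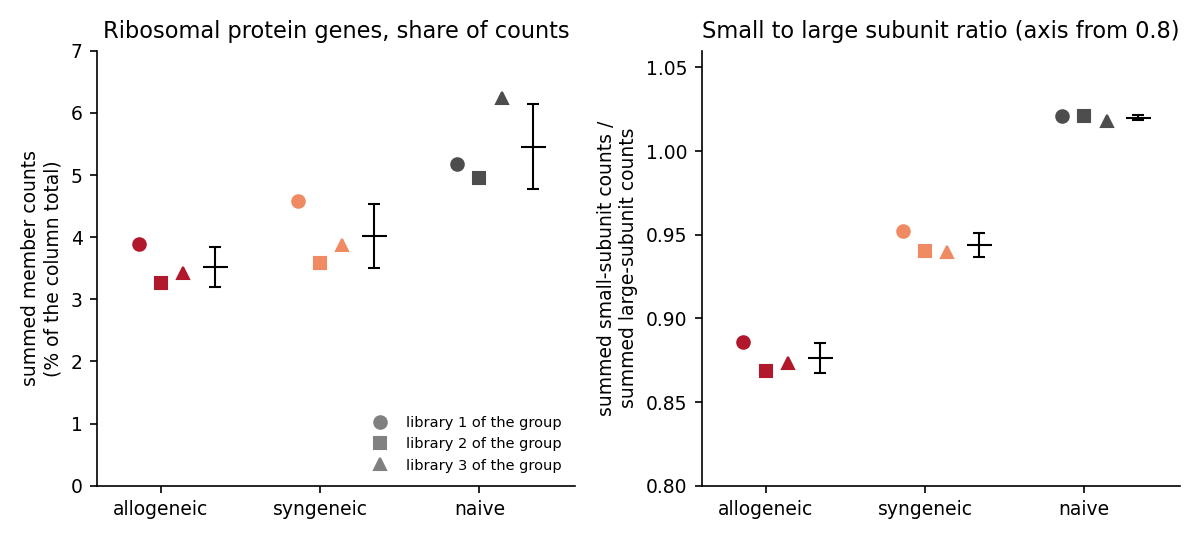
Left, summed counts of the 91 ribosomal protein genes as a percentage of the column total (axis from 0). Right, the ratio of summed small-subunit to summed large-subunit counts (axis from 0.8). Points are the 3 libraries of each group, and the bars beside them are the mean ± SD. In the right panel the allogeneic libraries lie at 0.869 to 0.886, below the syngeneic ones at 0.940 to 0.952 and the naive ones at 1.02.

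Levels of different genes were compared as CPM per kilobase of merged exons. The order was headed by Rplp1, a stalk protein, with 1075 ± 114 in allogeneic, 1430.1 ± 234 in syngeneic and 2205 ± 256 in naive T cells (SD, n = 3 each). Rps15, Rpl8 and Rplp0 were among the next, with means over all libraries of 1415, 1084 and 893 against 1570.1 for Rplp1. The SDs of Rplp1 and Rps15 met in each group. Rps15 had 1039 ± 88.9 in allogeneic, 1212 ± 169 in syngeneic and 1995 ± 201 in naive T cells. Rpl8 had 850.4 ± 110.3 in allogeneic, 981 ± 112 in syngeneic and 1421 ± 129 in naive T cells. It lay below both beyond the spread in naive T cells, while its spread met that of Rps15 in both transplant groups. Rpl8 and Rplp0 lay within their spread of each other in allogeneic T cells, where Rplp0 had 827 ± 88.7. These genes moved together from library to library, so the overlap of SDs does not compare genes within a library. Within each library Rpl8 lay below Rps15, and Rplp1 lay above Rps15 in most libraries. With the length of the principal mRNA in place of the merged exons, an alternative added after seeing the data, Rps27 came first and Rps15 second in the mean over all libraries. That order was not the same in each group: Rps27 had 1050.1 ± 64.6 in allogeneic, 1479.5 ± 281 in syngeneic and 2944 ± 481 in naive T cells. Rps15 had 1309.5 ± 112 in allogeneic, 1527 ± 213 in syngeneic and 2514 ± 253 in naive T cells, so that Rps15 was above Rps27 in all 3 allogeneic libraries. At the other end stood Rpl39l with a mean of 0.896, below which came Rpl9-ps1, Rpl36a-ps1, Rpl3l and Rpl36-ps4, which had 10 counts or fewer in every library. Those 4 did not pass the filter on low counts, which left 87 of the 91 genes tested, and Rpl10l was not analysed here.

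Against naive T cells, allogeneic T cells had less of most ribosomal protein mRNAs. In edgeR's quasi-likelihood test with Benjamini-Hochberg adjustment over all 19609 genes tested (called at an adjusted p under 0.05), 60 of the 87 genes fell and 2 rose. Of all genes tested, 25.9% were called lower and 31.8% higher. Among the tested ribosomal protein genes, 69.0% were lower and 2.3% higher, and their median log2 fold change was -0.58, against -0.01 for all genes tested. By role, 26 of 31 small-subunit genes, 28 of 43 large-subunit genes and 2 of 3 stalk genes fell, with medians of -0.70, -0.48 and -0.79, and none of the 77 rose. Leaving out 1 library in turn gave 44 to 71 lower genes. The naive libraries held almost no neutrophil marker RNA and the allogeneic ones did, as given above. Summed erythroid markers were low in both, at 25.0 to 84.1 CPM in allogeneic and 8.29 to 9.70 CPM in naive libraries. Of the 13 erythroid markers, 11 were called higher in allogeneic T cells and 0 lower.

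Syngeneic T cells showed the same direction against naive T cells in fewer genes. Of the 87, 29 fell and 1 rose, where 19.5% of all genes tested were lower and 22.4% higher. Their median log2 fold change was -0.36, against 0.01 for all genes. The lower genes were 16 of 31 small-subunit genes, 10 of 43 large-subunit genes and 2 of 3 stalk genes. This count rested on single libraries. Leaving out syngeneic library 1 gave 59, naive library 1 gave 18, syngeneic library 2 gave 9, and syngeneic library 3 or naive library 3 gave 8 each. With library totals as the only scaling it was 53. Summed T cell markers were lower and summed erythroid markers higher in these syngeneic libraries than in naive ones, with 7 of 10 T cell markers called lower and all 13 erythroid markers called higher.

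Allogeneic and syngeneic T cells differed in few of these genes. In the allogeneic group 10 of 87 fell and 2 rose, where 20.7% of all genes tested were lower and 24.3% higher. The share of lower genes, 11.5%, was below that of all genes. The median log2 fold change was -0.21, against -0.02 for all genes. Among the lower genes were Rps20, Rps27, Rps28, Rps29, Rpl36a, Rpl39 and Rps27rt. For Rpl39 the log2 fold change was -0.40 (adjusted p = 0.0365). That call was lost without syngeneic library 1 (-0.27, adjusted p = 0.129), syngeneic library 2 (adjusted p = 0.0522), allogeneic library 2 (-0.31, adjusted p = 0.134), allogeneic library 3 (adjusted p = 0.0802) or naive library 1 (adjusted p = 0.0552). For Rps27rt it was -0.51 (adjusted p = 0.041). That call was lost with only the 2 groups compared in the fit (adjusted p = 0.0545), without allogeneic library 2 (-0.40, adjusted p = 0.141) or 3 (adjusted p = 0.0972), without syngeneic library 1 (-0.29, adjusted p = 0.16) or 3 (adjusted p = 0.0551), and without naive library 1 (adjusted p = 0.0589). Over the 87 genes, leaving out allogeneic library 1 raised the count of lower genes to 29, and leaving out allogeneic library 2, syngeneic library 1, allogeneic library 3 or naive library 1 brought it to 2, 4, 5 and 5. The count of higher genes was 1 when syngeneic library 2, syngeneic library 3 or allogeneic library 3 was left out. The median was -0.04 when syngeneic library 1 was left out. Leaving the ribosomal RNA locus out of the library totals, with no further scaling, gave 46 lower and 2 higher genes, beside 5825 lower and 3373 higher among all genes, against 4066 and 4766 in the main test. That scaling moved the median of all genes by -0.18 in this comparison and by -0.16 against naive T cells. Relative to all genes, the ribosomal protein median in allogeneic against syngeneic T cells was -0.18 under it and -0.19 under the main scaling. Of the markers given above, 6 of 10 T cell markers were called higher and all 13 erythroid markers lower in this comparison.

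The 3 comparisons share libraries, so their calls are given side by side. Of the 87 genes, 28 were called lower in allogeneic against naive T cells alone. Another 22 were lower against naive T cells in both transplant groups without a call between those groups. The 6 genes called lower in every comparison included Rps27, Rps28, Rps29 and Rps27rt, each with at least 1 of its 3 calls lost in some alternative, as given with the gene or above. Rps27 and Rps27rt have the same coding sequence, so their calls are not independent. Rpl13a was the 1 gene called lower in syngeneic against naive T cells and in no other comparison, and 24 genes were called in none.

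**Figure D2:**
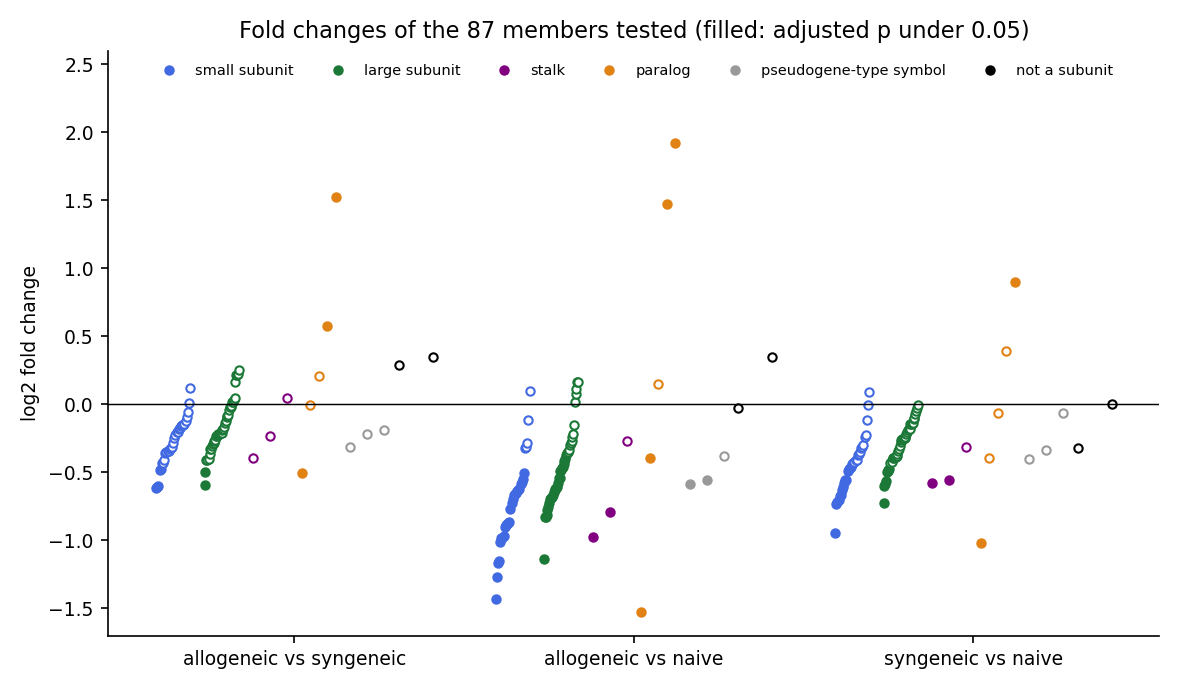
Log2 fold changes (vertical axis) of the 87 tested genes in the 3 comparisons, ordered by value within each class and coloured by class. Filled points passed the test. In allogeneic against naive T cells 26 of 31 small-subunit and 28 of 43 large-subunit genes are filled and below 0, and the paralogs Rps27l and Rpl39l lie above 0.

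Among small-subunit genes of the ribosome, Rps27, Rps29, Rps24 and Rps28 fell most in allogeneic against naive T cells. Rps27, a zinc-finger protein of the small subunit, had 384, 339.6 and 363 CPM in allogeneic libraries, 622, 446 and 463 CPM in syngeneic libraries and 965, 881 and 1201 CPM in naive libraries. No library of one group overlapped another group. Its log2 fold change against naive T cells was -1.43 ± 0.18 (SE) in allogeneic T cells (adjusted p = 4.71e-05) and -0.95 ± 0.18 in syngeneic T cells (adjusted p = 0.00149), and both calls held in all alternatives run. Between the transplant groups it was -0.48 ± 0.18 (adjusted p = 0.0472), a call lost without syngeneic library 1 (-0.26, adjusted p = 0.183), allogeneic library 2 (-0.41, adjusted p = 0.144), allogeneic library 3 (-0.48, adjusted p = 0.0985) or naive library 1 (-0.48, adjusted p = 0.0671).

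Rps29, another zinc-binding small-subunit protein, had 353, 299 and 323 CPM in allogeneic, 587, 433 and 481 CPM in syngeneic and 776, 712 and 962 CPM in naive libraries. The groups were again separate. It fell in allogeneic T cells by 1.27 ± 0.18 on the log2 scale against naive T cells (adjusted p = 8.45e-05), and syngeneic T cells fell by 0.66 ± 0.17 against naive T cells (adjusted p = 0.0096). Against syngeneic T cells the allogeneic log2 fold change was -0.61 ± 0.17 (adjusted p = 0.0147), and -0.52 without allogeneic library 2 (adjusted p = 0.0606). Rps28, which sits at the mRNA exit side of the small subunit, had 276, 232 and 254 CPM in allogeneic, 456, 338 and 372 CPM in syngeneic and 562, 529 and 674 CPM in naive libraries. The groups did not overlap. Its exons overlap those of Kank3 on the opposite strand. It fell in allogeneic T cells by 1.15 ± 0.17 against naive T cells (adjusted p = 0.00012) and by 0.60 ± 0.17 against syngeneic T cells (adjusted p = 0.0125), the second call being lost without allogeneic library 2 (-0.51, adjusted p = 0.054). In syngeneic against naive T cells it fell by 0.55 (adjusted p = 0.0188), a call lost without naive library 3 (-0.43, adjusted p = 0.084), syngeneic library 2 (-0.45, adjusted p = 0.0745) or syngeneic library 3 (-0.50, adjusted p = 0.0745).

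Rps20, a protein of the small-subunit head, had 365, 298 and 319.9 CPM in allogeneic, 581, 452 and 487 CPM in syngeneic and 641, 623 and 762 CPM in naive libraries. All allogeneic libraries lay below all others. The log2 fold change was -0.61 ± 0.16 against syngeneic T cells (adjusted p = 0.0094) and -0.98 ± 0.16 against naive T cells (adjusted p = 0.000301). Both calls held in all alternatives run. Rps24, one of the genes mutated in the human anemia named after Diamond and Blackfan, had 534, 457 and 498 CPM in allogeneic, 794, 613 and 622 CPM in syngeneic and 1099, 1020.1 and 1352 CPM in naive libraries, and the groups did not overlap. It fell by 1.16 ± 0.17 in allogeneic T cells (adjusted p = 0.000131) and by 0.73 ± 0.17 in syngeneic T cells (adjusted p = 0.00472), both against naive T cells. Rps21 fell by 0.90 ± 0.17 in allogeneic T cells (adjusted p = 0.000694) and by 0.72 ± 0.16 in syngeneic T cells (adjusted p = 0.0045), and Rps15 fell by 0.88 ± 0.16 (adjusted p = 0.000613) and by 0.68 ± 0.16 (adjusted p = 0.00526) in those comparisons.

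Other small-subunit genes with roles beyond the ribosome fell by less or were not called. Rps6, the subunit phosphorylated by the S6 kinases, had 560.3, 481 and 502 CPM in allogeneic, 697, 551 and 603 CPM in syngeneic and 744, 709.7 and 895 CPM in naive libraries. Allogeneic libraries lay below naive ones and overlapped syngeneic ones. It fell by 0.55 ± 0.15 against naive T cells (adjusted p = 0.0102), a call lost without naive library 3 (-0.42, adjusted p = 0.0505). Rps3, at the mRNA entry channel, fell by 0.58 ± 0.17 in the same comparison (adjusted p = 0.0117), and the call was lost without naive library 3 (-0.46, adjusted p = 0.0541) or allogeneic library 2 (-0.50, adjusted p = 0.051). Rps27a, which is made as a fusion with ubiquitin, fell by 0.66 ± 0.16 (adjusted p = 0.00398) and Rps4x by 0.72 ± 0.15 (adjusted p = 0.00186) in allogeneic against naive T cells. Rpsa, known as a laminin-binding protein too, had 1513, 1323 and 1401 CPM in allogeneic, 1506, 1129 and 1291 CPM in syngeneic and 1479, 1447 and 1853 CPM in naive libraries, with overlap throughout and no call.

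Rps19, the gene most often mutated in Diamond-Blackfan anemia, had 257, 207 and 223 CPM in allogeneic, 358, 269 and 296 CPM in syngeneic and 453, 425 and 568 CPM in naive libraries. It fell by 1.01 ± 0.18 in allogeneic T cells against naive T cells (adjusted p = 0.000466). In syngeneic against naive T cells it fell by 0.60 ± 0.18 (adjusted p = 0.0164), a call lost without naive library 3 (-0.45, adjusted p = 0.0766), syngeneic library 2 (-0.50, adjusted p = 0.0655) or syngeneic library 3 (-0.56, adjusted p = 0.065). Of 19 genes listed for that human disease, 15 fell in allogeneic against naive T cells, 10 in syngeneic against naive T cells and 6 in allogeneic against syngeneic T cells, with medians of -0.77, -0.44 and -0.33. These are 78.9, 52.6 and 31.6% of the list, against 25.9, 19.5 and 20.7% of all genes tested. Of the 77 structural ribosomal protein genes, 72.7, 36.4 and 11.7% were lower in these comparisons. Between the transplant groups, leaving out allogeneic library 1 gave 11 of the list, allogeneic library 2 gave 1, syngeneic library 1 gave 3, and naive library 1 or allogeneic library 3 gave 4 each. The scaling without the ribosomal RNA locus gave 14. Against naive T cells the syngeneic count was 3 without naive library 3, syngeneic library 2 or syngeneic library 3, 7 without naive library 1, and 16 without syngeneic library 1. The list consists of ribosomal protein genes and overlaps the groups above.

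In the large subunit Rpl12, which forms the base of the stalk with Rplp0, fell most against naive T cells. It had 587, 483 and 516 CPM in allogeneic, 841, 630.3 and 663 CPM in syngeneic and 1127, 1085 and 1424 CPM in naive libraries, with no overlap between groups. Its exons overlap Lrsam1 on the opposite strand. The log2 fold change was -1.14 ± 0.18 in allogeneic T cells (adjusted p = 0.000229) and -0.73 ± 0.18 in syngeneic T cells (adjusted p = 0.00672). The stalk proteins that bind next to it, Rplp1 and Rplp2, recruit translation factors. Rplp1 had 597, 484 and 528 CPM in allogeneic, 838, 606 and 697 CPM in syngeneic and 1055, 1002 and 1244 CPM in naive libraries. It fell by 0.98 ± 0.17 in allogeneic T cells (adjusted p = 0.000539) and Rplp2 by 0.79 ± 0.16 (adjusted p = 0.00125), both against naive T cells. Their scaffold Rplp0 had 1535, 1251 and 1328 CPM in allogeneic, 1522, 1196 and 1323 CPM in syngeneic and 1639.6, 1596 and 1936 CPM in naive libraries, and did not pass the test in any comparison.

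Rpl5 and Rpl11, which travel together with the 5S RNA and bind Mdm2, did not get the same call. Rpl5 had 327, 273 and 285 CPM in allogeneic, 429, 352 and 345 CPM in syngeneic and 518, 484 and 633 CPM in naive libraries. It fell by 0.82 ± 0.16 in allogeneic against naive T cells (adjusted p = 0.00114). Rpl11 had 296, 253 and 270.4 CPM in allogeneic, 323, 246 and 284 CPM in syngeneic and 333, 314 and 399 CPM in naive libraries, and did not pass the test in any comparison. The difference between the 2 genes was not tested. Rpl5 exons overlap Fam69a on the opposite strand.

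Rpl38, needed for the translation of Hox mRNAs in mouse embryos, had 309, 271 and 272 CPM in allogeneic, 331, 263 and 279.5 CPM in syngeneic and 379, 363 and 442 CPM in naive libraries. It fell by 0.41 ± 0.15 in allogeneic against naive T cells (adjusted p = 0.0317). The call was lost without naive library 1 (-0.44, adjusted p = 0.0594), naive library 3 (-0.30, adjusted p = 0.132), allogeneic library 2 (-0.35, adjusted p = 0.109) or allogeneic library 3 (-0.41, adjusted p = 0.0643). Rpl8 fell by 0.68 ± 0.17 in that comparison (adjusted p = 0.00434). Rpl13a, linked in human myeloid cells to interferon-dependent control of translation, had 1649.6, 1393 and 1416 CPM in allogeneic, 1451, 1134 and 1210.1 CPM in syngeneic and 1846, 1802 and 2266 CPM in naive libraries. Its 2 lowest libraries were syngeneic, and the log2 fold change there was -0.60 ± 0.17 against naive T cells (adjusted p = 0.0139), lost without naive library 3 (-0.47, adjusted p = 0.0642), syngeneic library 2 (-0.51, adjusted p = 0.056) or syngeneic library 3 (-0.54, adjusted p = 0.0603).

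The ranges of some abundant subunit genes overlapped between all groups. Rps2, named here after its values were seen, had 679.7, 593 and 629 CPM in allogeneic, 709, 546 and 649 CPM in syngeneic and 595, 569 and 681 CPM in naive libraries. It was not called in any comparison, and its exons overlap Snhg9 on the opposite strand. Rpl7a, also named after its values were seen, had 637, 541 and 566 CPM in allogeneic, 567, 449 and 505 CPM in syngeneic and 517, 488 and 617 CPM in naive libraries, also with no call.

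**Figure D3:**
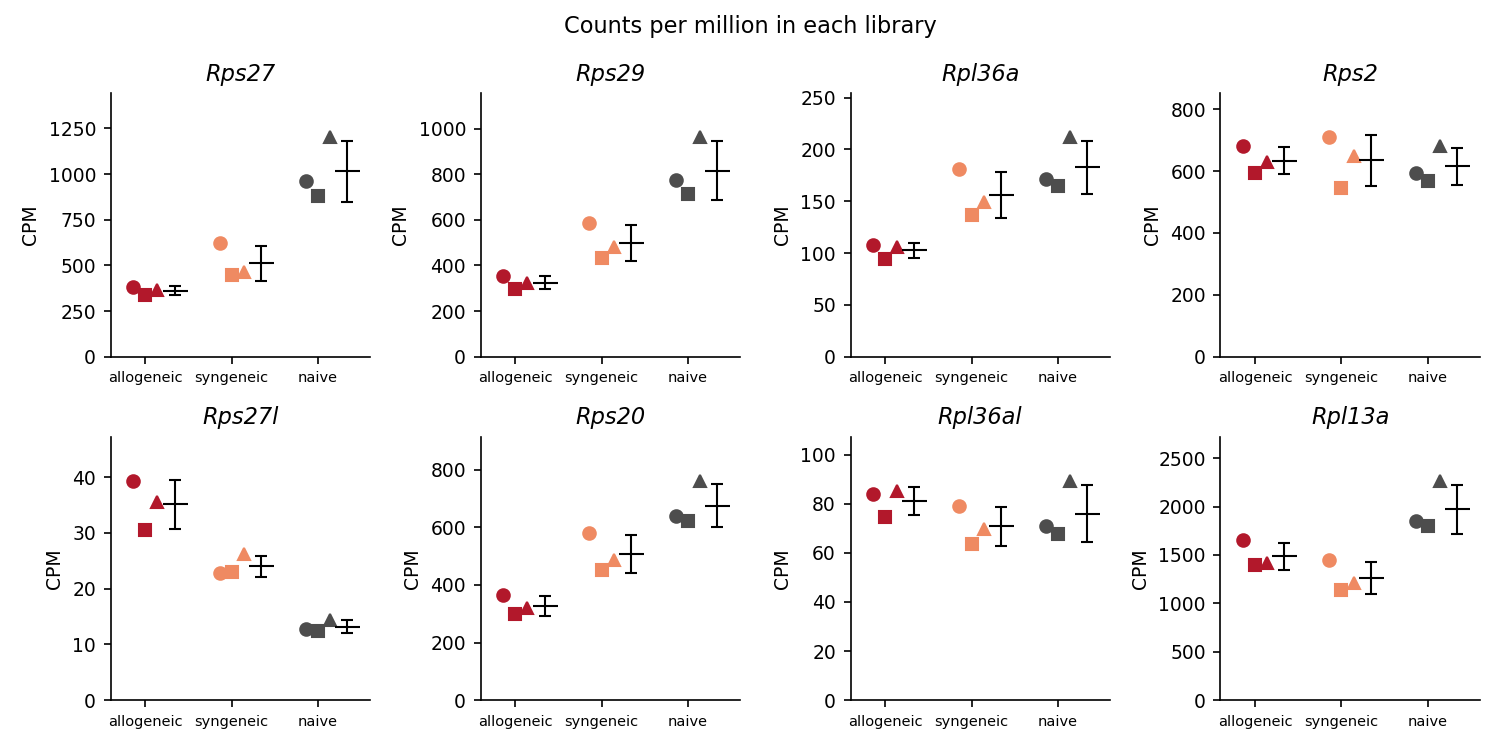
CPM in each library (vertical axes from 0) for 8 genes, with the mean ± SD of the 3 libraries beside each group. Rps27, Rps29, Rps20 and Rpl36a are lowest in allogeneic libraries, Rps27l is highest there, and Rps2 and Rpl36al overlap between the groups. Rpl13a is lowest in syngeneic library 2.

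The paralogs included the 2 genes that rose. Rps27l, which is induced by p53 in human cells, had 39.4, 30.6 and 35.5 CPM in allogeneic, 22.8, 23.0 and 26.3 CPM in syngeneic and 12.8, 12.4 and 14.5 CPM in naive libraries. The 3 groups did not overlap, with the order the reverse of that of Rps27. It rose in allogeneic T cells by 1.47 ± 0.14 on the log2 scale against naive T cells (adjusted p = 4.03e-06) and by 0.57 ± 0.14 against syngeneic T cells (adjusted p = 0.0055). In syngeneic against naive T cells it rose by 0.90 ± 0.14 (adjusted p = 0.000323). All 3 calls held in all alternatives run.

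The ratio of Rps27l to Rps27 counts within a library, as a percentage, was 10.2, 9.01 and 9.79% in allogeneic, 3.67, 5.16 and 5.67% in syngeneic and 1.32, 1.41 and 1.20% in naive libraries. The groups did not overlap, and the ratio in allogeneic T cells was 7.39 times that in naive and 2.03 times that in syngeneic T cells. The exact 2-sided permutation test gave p = 0.1 for each pair of groups, the smallest that 3 against 3 libraries can give (adjusted p = 0.15 over 9 ratio tests). Rps27rt, whose coding sequence equals that of Rps27 as shown above, stood at 6.60, 5.95 and 6.02% of Rps27 counts in allogeneic, 6.24, 6.13 and 6.60% in syngeneic and 6.66, 6.81 and 6.46% in naive libraries. The counts given to Rps27rt had log2 fold changes of -1.52 ± 0.18 in allogeneic T cells (adjusted p = 3.08e-05) and -1.02 ± 0.18 in syngeneic T cells (adjusted p = 0.000969), both against naive T cells. As reads over the coding part cannot be assigned to 1 of the 2 genes, these values are not independent of those of Rps27.

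Rpl36a, a large-subunit protein near the tRNA exit site, had 108, 94.4 and 106 CPM in allogeneic, 181, 137 and 149.6 CPM in syngeneic and 171, 165 and 212 CPM in naive libraries. Allogeneic libraries lay below all others. It fell in allogeneic T cells by 0.59 ± 0.15 against syngeneic (adjusted p = 0.0094) and by 0.78 ± 0.15 against naive T cells (adjusted p = 0.00118), calls that held in all alternatives run. Its intronless paralog Rpl36al, 87.7% identical in coding sequence, had 83.9, 74.6 and 85.1 CPM in allogeneic, 79.2, 63.6 and 69.8 CPM in syngeneic and 70.8, 67.7 and 89.3 CPM in naive libraries, and was not called. Rpl36al counts were 78.0, 79.1 and 80.3% of Rpl36a counts in allogeneic, 43.8, 46.4 and 46.6% in syngeneic and 41.3, 41.0 and 42.2% in naive libraries. The allogeneic ratio was 1.74 times the syngeneic and 1.91 times the naive one, and the syngeneic was 1.10 times the naive one. The exact 2-sided permutation p was again 0.1 for each pair of groups (adjusted p = 0.15 over the 9 ratio tests).

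Rpl22, whose loss blocks the development of alpha-beta T cells in mice, had 178, 157 and 166 CPM in allogeneic, 223, 189.6 and 196 CPM in syngeneic and 215, 211 and 248 CPM in naive libraries. Its paralog Rpl22l1 had 31.0, 23.9 and 27.4 CPM in allogeneic, 28.8, 29.9 and 25.1 CPM in syngeneic and 37.3, 32.7 and 42.8 CPM in naive libraries. The ratio of Rpl22l1 to Rpl22 counts within a library, as a percentage, overlapped between all groups, at 15.2 to 17.4% in allogeneic, 12.8 to 15.8% in syngeneic and 15.5 to 17.3% in naive libraries (exact 2-sided permutation p = 0.2 for allogeneic against syngeneic, 0.7 for allogeneic against naive and 0.2 for syngeneic against naive). In allogeneic against naive T cells Rpl22 fell by 0.37 ± 0.13 (adjusted p = 0.0286), lost without naive library 1 (-0.40, adjusted p = 0.0524), naive library 3 (-0.27, adjusted p = 0.123) or allogeneic library 2 (-0.30, adjusted p = 0.11). Rpl22l1 fell by 0.40 ± 0.16 there (adjusted p = 0.0469), a call lost with RLE factors (adjusted p = 0.0519) and without naive library 1 (adjusted p = 0.0975), naive library 3 (adjusted p = 0.191), allogeneic library 2 (adjusted p = 0.178) or allogeneic library 3 (adjusted p = 0.0761).

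Rpl39l, known in the mouse for its expression in the testis, was rare, with 83, 365 and 145 counts (0.704, 2.07 and 1.39 CPM) in allogeneic, 85, 23 and 60 counts (0.652, 0.213 and 0.553 CPM) in syngeneic and 61, 22 and 55 counts (0.441, 0.194 and 0.480 CPM) in naive libraries. Allogeneic library 2 was highest and allogeneic library 1 close to syngeneic library 1. The log2 fold change was 1.92 ± 0.50 against naive T cells (adjusted p = 0.00645) and 1.52 ± 0.49 against syngeneic T cells (adjusted p = 0.0261). The second call was lost without allogeneic library 2 (1.14, adjusted p = 0.107), allogeneic library 3 (1.50, adjusted p = 0.059), syngeneic library 2 (1.15, adjusted p = 0.0847) or syngeneic library 3 (1.61, adjusted p = 0.057). Its parent Rpl39 had 169, 143 and 156 CPM in allogeneic, 233, 205 and 189 CPM in syngeneic and 227, 218 and 265 CPM in naive libraries, and fell by 0.54 ± 0.14 in allogeneic against naive T cells (adjusted p = 0.00634). Rps19bp1 and Rpl7l1, the non-subunits, were called in no comparison. Of the 3 tested genes with a pseudogene-type symbol (Rpl10-ps3, Rpl9-ps6 and Rps12-ps3), 2 fell in allogeneic against naive T cells. Their coding sequences are 99.8 to 100.0% identical to those of Rpl10, Rpl9 and Rps12, so that reads may be split between the copies.

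Among the 77 structural genes those with a shorter coding sequence were called lower more often in allogeneic T cells. Coding length, counted without the stop codon, ran from 75 to 1257 bases with a median of 456. In allogeneic against naive T cells 32 of 38 genes below that median fell, and 24 of 39 at or above it, with medians of -0.70 and -0.55. In allogeneic against syngeneic T cells 8 of 38 and 1 of 39 fell, and in syngeneic against naive T cells 15 of 38 and 13 of 39. Spearman's rho between coding length and log2 fold change over the 77 genes was 0.34, 0.39 and 0.13 in these 3 comparisons. Genes share libraries and are not replicates, so no p is given. With mRNA length in place of coding length rho was 0.14, 0.09 and 0.10. With the GC percentage of the mRNA it was 0.09, 0.34 and -0.16, so that between the transplant groups its size was close to that of coding length. Over 19486 genes exon length gave a rho of 0.05, 0.01 and 0.00.

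**Figure D4:**
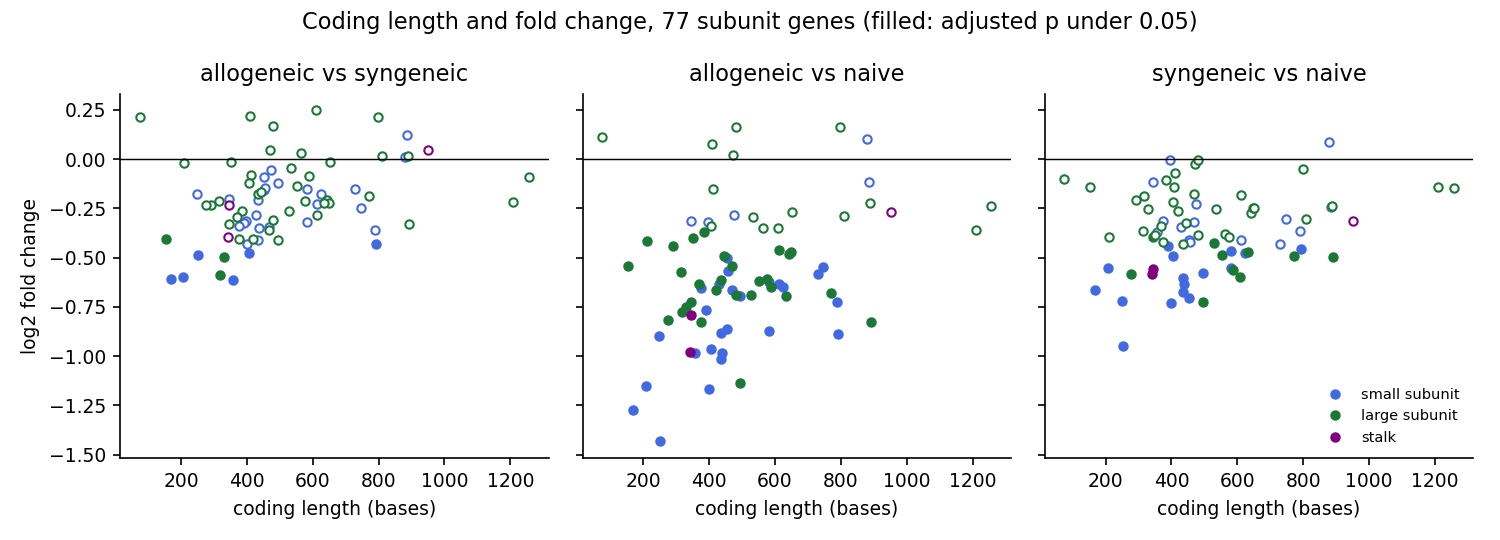
Coding length in bases (horizontal axes) and log2 fold change (vertical axis) of the 77 structural genes, coloured by subunit; filled points passed the test. In allogeneic against naive T cells the lowest points, Rps27 and Rps29, are among the shortest genes, and Spearman's rho is 0.34.

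Genes with and without a pyrimidine run at the start had like medians in allogeneic against naive T cells. A pyrimidine run of at least 5 bases that begins with C within 5 bases of an annotated start was found in 27 of the 57 structural genes with a RefSeq entry (47.4%), against 21.2% of the 27025 genes in the table. On either strand of the window from 250 bases before to 50 bases after the start, CCGGAAG was found in 24 of 57 (42.1%, against 9.93% of genes), ATGGCG in 16 (28.1%, against 10.2%) and TATAAA in 6 (10.5%, against 15.7%). In allogeneic against naive T cells the median log2 fold change was -0.57 for the 27 genes with a pyrimidine run, of which 20 fell, and -0.60 for the 30 without, of which 21 fell. The medians with and without the motif were -0.55 and -0.62 for CCGGAAG, -0.45 and -0.62 for ATGGCG, and -0.46 and -0.61 for TATAAA, which only 6 genes held. In allogeneic against syngeneic T cells 3 of the 6 genes with TATAAA fell and 3 of the 51 without it. In syngeneic against naive T cells the order was reversed. There 1 of the 6 and 18 of the 51 fell, with medians of -0.16 and -0.39. A match is a description of these letters and not evidence of binding. The starts were taken as annotated and were not measured in these cells. Genes with and without a run are therefore not a split of TOP mRNAs against others.

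Subunit genes outside the symbol rule were read as a comparison. Fau, which encodes a small-subunit protein fused to a ubiquitin-like one, had 314, 273 and 269 CPM in allogeneic, 311, 239 and 271 CPM in syngeneic and 425, 399 and 518 CPM in naive libraries. It fell by 0.59 ± 0.16 in allogeneic (adjusted p = 0.00856) and by 0.67 ± 0.16 in syngeneic T cells (adjusted p = 0.00637), both against naive T cells, whereas Rack1, a scaffold protein on the small subunit, was called in no comparison. Of 22 other TOP mRNAs, mostly elongation and initiation factors and including Fau and Rack1, 4 fell and 5 rose in allogeneic against naive T cells, with a median of 0.03. These are 18.2 and 22.7% of the list, against 25.9% of all genes tested that were lower and 31.8% that were higher. Leaving out allogeneic library 1 gave 8 lower genes and a median of -0.08, and without naive library 2 the median was -0.03. Under the scaling without the ribosomal RNA locus 9 fell and 4 rose, and the median was -0.13. Tpt1, the translationally controlled tumor protein gene, had 856, 728 and 796 CPM in allogeneic, 1014, 934 and 803 CPM in syngeneic and 1487, 1407 and 1726 CPM in naive libraries. It fell by 0.90 ± 0.15 in allogeneic against naive T cells (adjusted p = 0.000361), while Nap1l1, a histone chaperone gene, rose by 0.81 ± 0.11 (adjusted p = 6.03e-05).

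Genes that control TOP mRNAs were called in both directions. Of 20 listed mTORC1 and TOP regulator genes, 9 rose and 3 fell in allogeneic against naive T cells, 5 rose and 3 fell in syngeneic against naive T cells, and 5 rose and 4 fell in allogeneic against syngeneic T cells. The shares in allogeneic against naive T cells were 45% higher and 15% lower, against 31.8 and 25.9% of all genes. In the other comparisons they were near those of all genes, at 25% and 15% against 22.4 and 19.5% in syngeneic against naive T cells, and at 25% and 20% against 24.3 and 20.7% in allogeneic against syngeneic T cells. Leaving out naive library 2 or syngeneic library 3 gave 3 higher genes in syngeneic against naive T cells, and leaving out allogeneic library 1 or syngeneic library 1 gave 2 lower genes in allogeneic against syngeneic T cells. Under the scaling without the ribosomal RNA locus 7 rose and 7 fell in allogeneic against naive T cells, and 4 rose and 6 fell in allogeneic against syngeneic T cells. Rptor, the scaffold of mTORC1, had 62.3, 77.3 and 74.7 CPM in allogeneic, 110.1, 118 and 121 CPM in syngeneic and 123, 133 and 114 CPM in naive libraries. It fell in allogeneic T cells by 0.74 ± 0.07 against naive (adjusted p = 6.06e-06) and by 0.69 ± 0.07 against syngeneic T cells (adjusted p = 2.17e-05). Larp1, which binds the TOP start, had 371, 476 and 484 CPM in allogeneic, 571, 528 and 587 CPM in syngeneic and 335, 347 and 334 CPM in naive libraries. It was highest in syngeneic T cells, with a log2 fold change of 0.77 ± 0.09 against naive T cells (adjusted p = 5.61e-05), and the allogeneic one against syngeneic T cells was -0.34 ± 0.09 (adjusted p = 0.0117). All allogeneic libraries lay above all naive ones for Larp1. The largest rises of the list in allogeneic T cells were those of Rps6kb2 against naive and Lamtor1 against syngeneic T cells. They were 0.69 ± 0.09 (adjusted p = 7.28e-05) and 0.66 ± 0.12 (adjusted p = 0.00139).

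Of 12 genes for ribosomal protein chaperones and assembly, 3 rose and 2 fell in allogeneic against naive T cells, 4 rose in syngeneic against naive T cells, and 2 rose and 4 fell in allogeneic against syngeneic T cells. The shares were 25.0% higher and 16.7% lower in allogeneic against naive T cells, 33.3% higher in syngeneic against naive T cells, and 16.7% higher and 33.3% lower in allogeneic against syngeneic T cells. Of all genes, 31.8 and 25.9%, 22.4%, and 24.3 and 20.7% were so called. The 4 higher genes in syngeneic against naive T cells were 2 without naive library 2, syngeneic library 1 or syngeneic library 3. In allogeneic against syngeneic T cells the 2 higher calls were lost without allogeneic library 1, allogeneic library 2, syngeneic library 2 or syngeneic library 3, and 2 genes fell without allogeneic library 2. Under the scaling without the ribosomal RNA locus 2 rose and 4 fell against naive T cells, and 7 fell against syngeneic T cells, in the allogeneic group. Tsr2, the escort of the small-subunit protein Rps26, had 12.5, 11.6 and 11.6 CPM in allogeneic, 20.2, 18.7 and 17.2 CPM in syngeneic and 20.99, 18.8 and 18.9 CPM in naive libraries. The allogeneic libraries lay below all others. It fell in allogeneic T cells by 0.66 ± 0.13 against naive (adjusted p = 0.000916) and by 0.64 ± 0.13 against syngeneic T cells (adjusted p = 0.00188). Grwd1, a chaperone of Rpl3, fell by 0.44 ± 0.12 (adjusted p = 0.00942) and by 0.65 ± 0.12 (adjusted p = 0.00149) in those comparisons, while Bop1, a large-subunit assembly factor, rose by 0.43 ± 0.10 in allogeneic against naive T cells (adjusted p = 0.00289).

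Mitochondrial ribosomal protein genes, the nearest family by function, had medians of the opposite sign to the cytosolic ones. Of 78 such genes, 43 rose and 5 fell in allogeneic against naive T cells, with a median log2 fold change of 0.36 against -0.58 for the cytosolic genes. These are 55.1 and 6.41% of the family, against 31.8 and 25.9% of all genes tested. In syngeneic against naive T cells 10 rose, with a median of 0.12 against -0.36. The 12.8% that rose was below the 22.4% of all genes. That count was 3 without naive library 1, 4 without naive library 2 or syngeneic library 3, 6 without syngeneic library 1 and 17 without allogeneic library 1, and 16 under the scaling without the ribosomal RNA locus. In allogeneic against syngeneic T cells 27 rose and 2 fell, with a median of 0.25 against -0.21. These are 34.6 and 2.56%, against 24.3 and 20.7% of all genes. Under the scaling without the ribosomal RNA locus the split in allogeneic against syngeneic T cells was 20 higher and 6 lower. The mitochondrial median was positive, and the cytosolic one negative, under every scaling, tool and filter run and without any 1 library. The difference between the families was not tested.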

How the data were processed

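All 9 libraries stand in 1 table of raw counts of reads for each gene, as deposited by the authors. Per the labels' protocols, stranded libraries were made from total RNA after ribosomal RNA depletion. Per the submitters' processing notes, the build was GRCm38 and the tools were HTSeq 0.6.1, Bowtie2 2.2.1, TopHat2 2.0.13 and FastQC 0.11.3. Strand setting, annotation release and treatment of multiply aligned reads: not given in the sources used here. Reads of overlapping genes and near-identical copies may therefore be mixed: exons of 19 of the 91 genes overlap another gene on the opposite strand and exons of 28 overlap one on the same strand.

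Symbols, biotypes and lengths came from the GENCODE mouse annotation of GRCm38, and 215 identifiers had no match. Genes were kept by filterByExpr by group, scaled by TMM, and tested by the quasi-likelihood test (glmQLFit, then glmQLFTest) of edgeR 4.0.16, fitting the 9 libraries jointly with no term but group. Adjusted p is by Benjamini-Hochberg over 19609 genes, with 0.05 as the threshold. SE is the size of the log2 fold change over the square root of F. CPM used column totals, and log2 fold changes used TMM. The fit was tested on simulated data in which genes were drawn independently, with no shift shared by genes of a library. That setting does not cover the movement of the subunit genes as a block. Alternatives were library totals, library totals without the ribosomal RNA locus, RLE factors, DESeq2 1.42.0, limma-voom (limma 3.58.1), other filters, only the 2 groups compared, a replicate block, pseudogene counts added, and leaving out each library. Libraries of a group differed by more than sampling noise. P-values measure the spread between pools in the transplant groups and, in the naive group, between libraries of unstated origin.

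The genes and lists were chosen with earlier results of these data known. Genes named in the text were, per comparison, up to 5 called genes with the largest rise and 5 with the largest fall; the 5 highest and 5 lowest by level per length; paralog pairs, stalk genes and genes with known roles fixed by name; and, per companion list and comparison, among the 2 called genes with the largest change each way. Exceptions are marked. Some genes are not reported here by name.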

Additional observations from a re-analysis of the deposited data

How the results depend on the processing

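In allogeneic against naive T cells the lower count stayed within 1.5 times of 60 in all alternatives (44 to 71 without 1 library, and 2 to 3 higher), and the median log2 fold change ran from -0.73 to -0.45 without 1 library. In allogeneic against syngeneic T cells the lower count was 25 with library totals alone and 46 without the ribosomal RNA locus, where the median was -0.38. Without 1 library it ran from 2 to 29, the higher count from 1 to 3 and the median from -0.35 to -0.039. In syngeneic against naive T cells the lower count was 53 with library totals alone and 44 with the replicate block, and without 1 library it ran from 8 to 59, with 1 higher and a median of -0.52 to -0.24. With the ribosomal RNA locus left out of the totals the summed shares were 4.00% in allogeneic, 5.08% in syngeneic and 6.62% in naive libraries. Over full column totals, the mean shares without 1 library of the group ran from 3.34 to 3.66% in allogeneic, 3.73 to 4.23% in syngeneic and 5.07 to 5.71% in naive libraries. The cause was not tested. No called change of a named gene turned its sign in the alternatives run, while genes without a call were not followed.

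Whether replicate numbers pair the libraries is not stated, and 3 libraries per group cannot decide it. Deviations from group means correlated at -0.12 to 0.26 between same-numbered libraries of different groups. Between differently numbered ones they correlated at -0.25 to 0.19. The replicate block gave 63 lower genes in allogeneic against naive and 15 in allogeneic against syngeneic T cells, where the main test gave 60 and 10. In syngeneic against naive T cells it gave 44, against 29 in the main test.

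Rpl39l is limited by low counts and by the spread between its allogeneic libraries, and the genes below the filter by low counts. P-values from 3 libraries per group rest on a spread shared across groups, and within each group the subunit genes moved together, so that 1 library can carry many calls.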
